A study of Mus musculus with 8 samples.

Results

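The nuclear genes for 39 subunits of respiratory complexes II, III and IV, of cytochrome c and of ATP synthase were followed in the ventral midbrain of Ercc1 mutant mice. The members were taken from a list of subunit names, matched by symbol (older or newer names for ATP synthase) in a table of messenger RNA counts, and all 39 were found among 15274 genes. They comprise 4 genes of complex II, 9 of complex III, 1 for cytochrome c, 10 of complex IV and 15 of ATP synthase, also called complex V. All 39 passed the filter on low counts, which left 14989 genes to be tested.

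Poly(A) RNA from the ventral mesencephalic area was sequenced in 4 samples of Ercc1 delta/+ mice and 4 samples of wild type mice. Ercc1 encodes a subunit of a nuclease of nucleotide excision repair, which removes damaged stretches of DNA, and the delta/+ animals carry a mutant allele beside a normal one. Both groups were of a mixed FVB:C57BL/6J background on a regular diet. The labels give neither age, sex nor pooling, and do not state that samples came from different mice; p-values therefore describe sample-to-sample spread, which may be technical. Ercc1 itself stood at 10.2, 12.9, 11.1 and 11.9 CPM (counts scaled to library size) in Ercc1 delta/+ replicates 1 to 4 and at 14.1, 15.4, 15.0 and 13.8 CPM in wild type replicates 1 to 4. On the log2 scale that was -0.34 (SE 0.10, adjusted p = 0.114), with the 2 genotypes not overlapping.

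Oxidative phosphorylation passes electrons along protein complexes of the inner mitochondrial membrane. Complex II (succinate dehydrogenase) feeds electrons from the citric acid cycle into ubiquinone, complex III passes them to cytochrome c, complex IV gives them to oxygen, and ATP synthase uses the proton gradient to make ATP. Complex II is built from nuclear genes alone, whereas complexes III and IV and ATP synthase also hold subunits encoded in mitochondrial DNA, which are not analysed here. Midbrain dopaminergic neurons depend heavily on this pathway.

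Every one of the 39 subunit genes had a lower fitted level in Ercc1 delta/+ than in wild type, by 36.5% for Atp5e at the most, and 0 of them passed the test over all genes. The log2 fold changes (Ercc1 delta/+ over wild type) ran from -0.65 for Atp5e to -0.04 for Uqcrc1 and Atp5a1, with a median of -0.31, where the median of all genes tested was 0.00. Among all genes tested 50.5% were negative. All 39 were also negative with RLE and upper-quartile scaling, while 31 of 39 were negative once a trend over transcript length and GC content was taken out. By the edgeR quasi-likelihood test with Benjamini-Hochberg adjustment 0 of 39 were called, where 0.0334% of all genes were called lower and 0.0467% in either direction.

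At an unadjusted p of 0.05, 27 of the 39 (69.2%) were lower and 0 higher, where 9.57% of all genes were lower and 9.03% higher. Leaving out Ercc1 delta/+ replicate 1 gave 15 (7.41% of all genes), leaving out its replicate 3 gave 17 (9.40%), and its replicate 4 gave 16 (6.88%). Leaving out wild type replicate 3 gave 17 (7.42%), and leaving out Ercc1 delta/+ replicate 2 gave 32 (11.5%). With the trend over length and GC content taken out, the count was 10 (25.6%), where 4.91% of all genes were lower. In 9 members (23.1%) every Ercc1 delta/+ library lay below every wild type library, where 6.86% of all genes did so. That number was 30 (76.9%) without Ercc1 delta/+ replicate 2, against 12.2% of all genes, and 21 without wild type replicate 4, against 9.70%. It was 14 with upper-quartile scaling, against 8.41%, and 3 (7.69%) with the trend taken out, against 3.52%.

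Some other tests and settings called more members. DESeq2 called 12 lower (3.85% of all genes with an adjusted p), the edgeR exact test 7 (2.00% of all genes) and limma-voom 0 (0.227% of all genes). In the authors' deposited table Uqcrh, Cox4i1, Cox7a2, Cox7c, Atp5e and Atp5l had adjusted p-values below 0.05, where 0.843% of its rows did in the lower direction. Without Ercc1 delta/+ replicate 2 the quasi-likelihood test called 16 members lower, where it called 1.64% of all genes. Of the Ercc1 delta/+ libraries, only that library had a mean over the members inside the wild type range. With any other single library left out, no member's call changed. The counts come from bulk tissue, in which fewer cells of a type and less RNA per cell cannot be told apart.

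**Figure D1:**
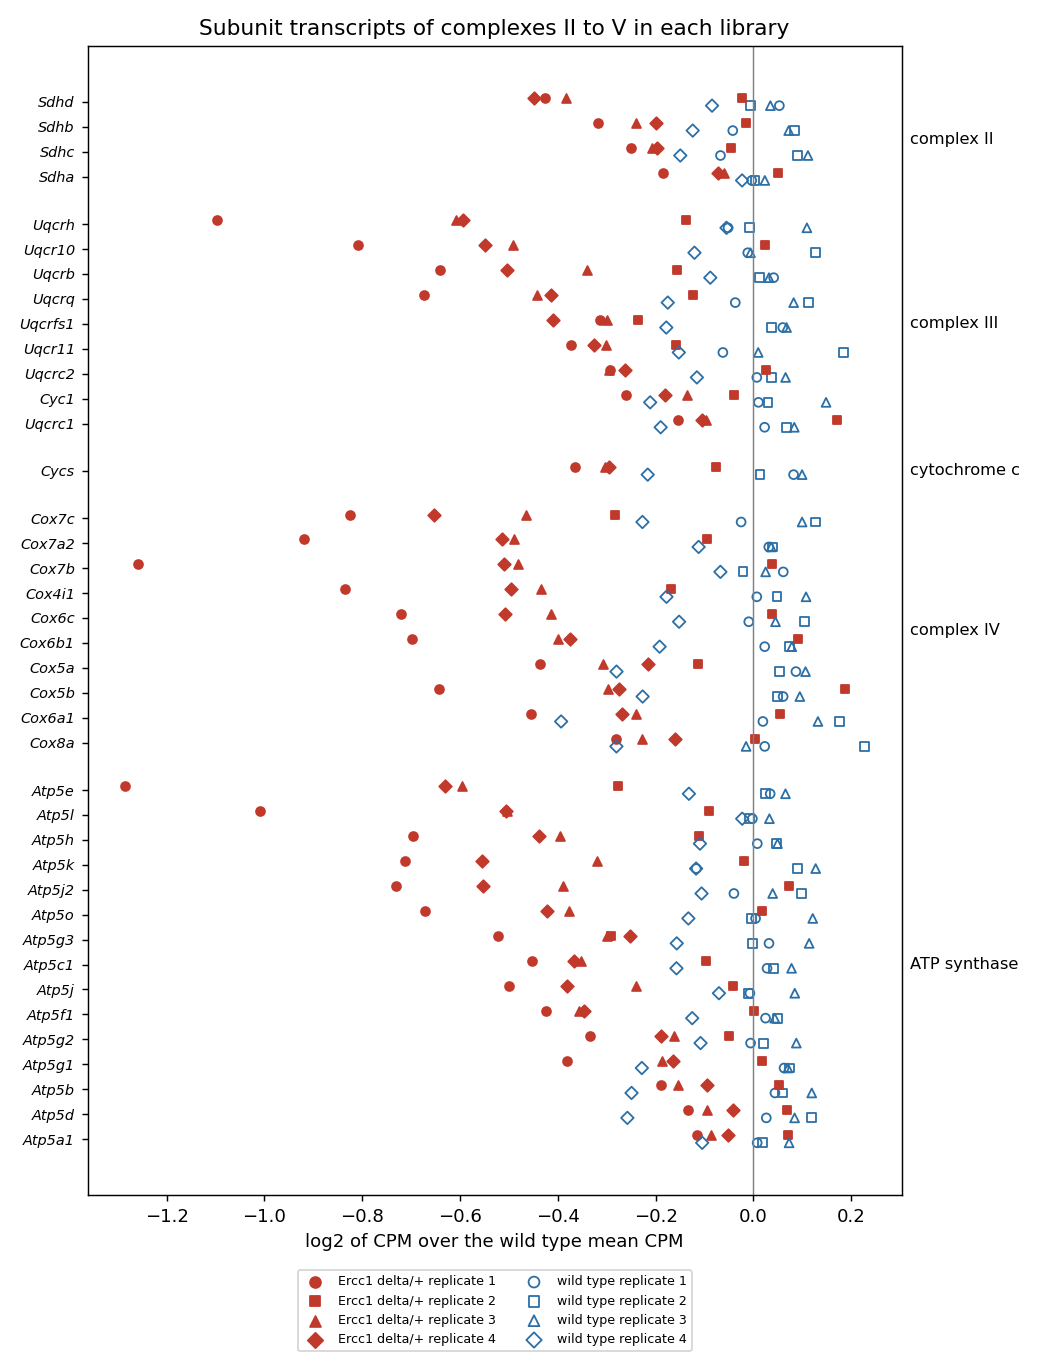
Level of each of the 39 subunit transcripts in each library, as log2 of its CPM over the mean CPM of the 4 wild type libraries, in order of fold change within each complex. Filled points are Ercc1 delta/+ libraries and open points wild type libraries, with 1 shape per replicate number; Ercc1 delta/+ replicate 1 lies farthest to the left in most genes, and replicate 2 lies among the wild type libraries in most.

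The libraries of a group did not act alike. Averaged over the 39 members, log2 CPM relative to the mean of the 8 libraries was -0.39, 0.12, -0.16 and -0.19 in Ercc1 delta/+ replicates 1 to 4 and 0.17, 0.22, 0.23 and 0.00 in wild type replicates 1 to 4. Ercc1 delta/+ replicate 2 thus lay inside the wild type range, and wild type replicate 4 stood lowest in its group. Replicate 1 of Ercc1 delta/+ held the lowest value of the 8 libraries in 33 of the 39 genes, and replicates 1, 3 and 4 were each below the mean of the 8 libraries in all 39. Replicate 2 was below that mean in 4 genes and below the lowest wild type library in 9, where replicates 1, 3 and 4 were below it in 36, 31 and 30.

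The members also kept in step with each other from library to library. Pearson's r of each member with the mean of the other 38, over the 8 libraries, ran from 0.64 (Atp5d) to 0.99, with a median of 0.95, and was at least 0.9 in 30 members. Genes of the same libraries share their depth and scaling, so these values are a description. They are as counted, with the trend over transcript length and GC content left in. Once that trend was taken out, the means of the 39 members lay closer together. They were -0.10, 0.06, -0.07 and -0.07 in Ercc1 delta/+ replicates 1 to 4 and 0.06, 0.07, 0.10 and -0.05 in wild type replicates 1 to 4. Outside the lists examined, the genes closest to the mean of the members were Pomp (r = 0.999, log2 fold change -0.30), Gpx4 (r = 0.989, -0.37) and Glrx3 (r = 0.989, -0.29), each over 8 libraries.

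**Figure D2:**
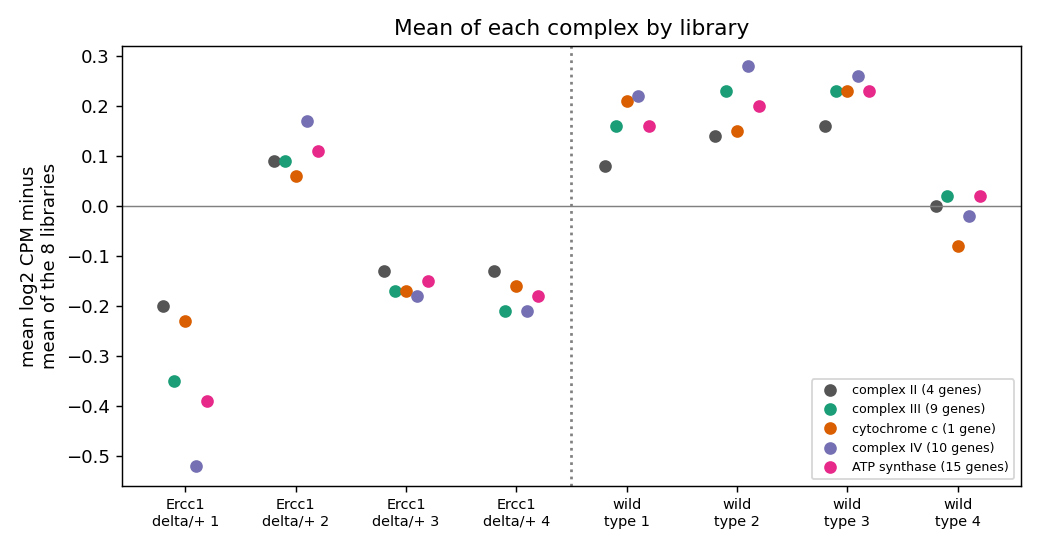
Mean log2 CPM of the genes of each complex in each library, minus the mean of the 8 libraries; 1 colour per complex, Ercc1 delta/+ libraries left of the dotted line and wild type libraries right of it. All complexes are lowest in Ercc1 delta/+ replicate 1 (-0.52 for complex IV, -0.20 for complex II) and lie above 0 in Ercc1 delta/+ replicate 2 (0.17 and 0.09).

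Depth and the levels of regional markers differed between the libraries. Totals ran from 18268373 to 27146604 counts in Ercc1 delta/+ and from 20517887 to 31197522 counts in wild type, and the subunit genes took 0.553% to 0.709% of the counts in Ercc1 delta/+ and 0.689% to 0.789% in wild type. All 8 dopaminergic markers were detected, with sums of 221 to 460.4 CPM in Ercc1 delta/+ and 325 to 494 CPM in wild type, so the tissue carried the markers of its label. The sum of 8 choroid plexus markers ran from 76.6 to 1145 CPM in Ercc1 delta/+ and from 64.4 to 156 CPM in wild type; Kl and Kcnj13 were apart between groups, and 0 of the 8 markers was at 0. Ercc1 delta/+ replicate 2, which stood apart for the subunits, had the lowest sum of 6 hypothalamic markers (24.6 CPM, against 280.3 to 676 CPM in wild type) and the highest sum of 6 cortical and hippocampal markers (179.9 CPM, against 53.0 to 90.0 CPM in wild type). Ercc1 delta/+ replicate 1, the lowest for the subunits, also lay outside the wild type range in both sums, with 217 CPM of hypothalamic and 137 CPM of cortical and hippocampal markers. The sum of 4 thalamic markers was 320 and 295 CPM in Ercc1 delta/+ replicates 1 and 2, against 428 to 826 CPM in wild type. The sum of 5 endothelial markers was 222 and 218 CPM in these 2 libraries, against 150 to 175 CPM in wild type. Ercc1 delta/+ replicates 3 and 4 lay inside the wild type range for thalamic and endothelial markers, but not for every set. The sum of 2 blood markers was 102, 156, 118 and 138 CPM in Ercc1 delta/+ replicates 1 to 4, against 147 to 195 CPM in wild type. For 6 neuronal markers it was 5890, 6335, 5163 and 5392 CPM, against 4691 to 5812 CPM in wild type. Oligodendrocyte marker sums lay inside the wild type range in every Ercc1 delta/+ library. The part of these differences in the subunit values was not tested.

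The promoters of the subunit genes were searched on both strands for sequences bound by factors known to drive respiratory genes. These were NRF1 (GCGCA, any base, then GCGC), GABPA (CCGGAAGT), YY1 (AAGATGGCG) and ESRRA (TCAAGGTCA). The NRF1 letters can match both strands at the same place. RefSeq promoter sequences of GRCm38.p6 (250 bases before to 50 after the start) were at hand for 31 of the 39 members; Sdhc, Uqcrc2, Uqcrb, Uqcrq, Cyc1, Cox4i1, Cox6c and Atp5a1 had none in the table. The NRF1 letters occurred in 10 of 31 members (32.3%), in 10.2% of 11738 tested genes and in 5.19% of all 27025 genes with a promoter. GABPA letters occurred in 4 members (12.9%; 7.88% of tested genes and 4.31% of all), YY1 letters in 2 (6.45%; 3.10% and 1.64%) and ESRRA letters in 2 (6.45%; 0.341% and 0.466%). A match is a description of the letters in this window, and its part in the levels of these libraries was not tested.

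The stretches just before the start are shown for chosen members of the complexes, 5′ to 3′ on the strand of the gene, with matches in capitals. Uqcrfs1 and Atp5l, whose groups were apart as counted, are not shown and hold none of the 4 in the window searched. The shares of members with a match are those given above, not those of the stretches shown. Sdhd (chr9:50603850-50603949, minus strand) holds an NRF1 match, Uqcrh (chr4:116075071-116075170, minus strand) and Uqcr11 (chr10:80406822-80406921, minus strand) a GABPA match, Atp5h (chr11:115419920-115420069, minus strand) both, and Atp5g3 (chr2:73911327-73911426, minus strand) an ESRRA match. Cox7c (chr13:86046796-86046895, minus strand) and Atp5e (chr2:174464102-174464201, minus strand), which had low fold changes in complex IV and ATP synthase, hold none of the 4 in these letters. All coordinates are those of GRCm38.p6, a later build than the mm9 used for the counts.
Sdhd: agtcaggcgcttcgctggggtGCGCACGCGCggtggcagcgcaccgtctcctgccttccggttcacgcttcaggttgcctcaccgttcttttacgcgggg
Uqcrh: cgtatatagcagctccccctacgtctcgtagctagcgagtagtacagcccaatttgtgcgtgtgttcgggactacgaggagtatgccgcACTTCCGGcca
Uqcr11: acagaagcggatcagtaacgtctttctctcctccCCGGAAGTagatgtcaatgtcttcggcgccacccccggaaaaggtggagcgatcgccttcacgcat
Cox7c: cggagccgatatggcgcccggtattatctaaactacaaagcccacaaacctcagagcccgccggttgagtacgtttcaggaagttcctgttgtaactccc
Atp5e: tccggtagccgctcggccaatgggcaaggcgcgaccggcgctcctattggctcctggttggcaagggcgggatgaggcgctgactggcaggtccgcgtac
Atp5h: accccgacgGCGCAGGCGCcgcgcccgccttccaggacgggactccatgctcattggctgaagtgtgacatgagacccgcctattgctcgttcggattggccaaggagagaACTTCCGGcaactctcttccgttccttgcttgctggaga
Atp5g3: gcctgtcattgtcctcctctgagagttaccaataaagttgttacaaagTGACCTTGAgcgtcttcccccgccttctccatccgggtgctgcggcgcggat

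In the account of each complex, the offset is the removal of the trend over transcript length and GC content, and values in parentheses are log2 fold changes with their SE and the adjusted p of the edgeR quasi-likelihood test. In complex II, all 4 genes had negative values with a median log2 fold change of -0.18, and 2 were lower at an unadjusted p of 0.05. Sdhd, a membrane anchor of the complex, had 59.6, 78.9, 61.4 and 58.7 CPM in Ercc1 delta/+ replicates 1 to 4, against 83.1, 79.7, 82.1 and 75.5 CPM in wild type replicates 1 to 4. Replicates 1, 3 and 4 of Ercc1 delta/+ lay below all wild type libraries, and replicate 2 lay between them. The log2 fold change of Sdhd was -0.31 (SE 0.10, adjusted p = 0.144).

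Sdhb, the iron-sulfur subunit, stood at 91.5, 113, 96.5 and 99.2 CPM in Ercc1 delta/+ and at 111, 121, 119.9 and 105 CPM in wild type (log2 fold change -0.19, SE 0.08, adjusted p = 0.254). The other anchor gene, Sdhc, had a value of -0.17 (SE 0.08). Sdha, the flavoprotein that oxidises succinate, was nearest 0 in this complex. It held 463, 544, 504 and 499.9 CPM in Ercc1 delta/+ and 524, 527, 534 and 517 CPM in wild type, which on the log2 scale was -0.06 (SE 0.06, adjusted p = 0.620). Sdha transcripts thus had their highest and lowest values both in Ercc1 delta/+ libraries. Offset values in complex II were -0.05 for Sdha, -0.06 for Sdhb, -0.17 for Sdhc and -0.15 for Sdhd.

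In complex III, the median over 9 genes was -0.31; 7 were lower at an unadjusted p of 0.05, and in 4 the groups did not overlap. Uqcrfs1 encodes the Rieske iron-sulfur protein, which takes electrons from ubiquinol. It had 87.9, 92.8, 88.7 and 82.2 CPM in Ercc1 delta/+ replicates 1 to 4 and 114, 112, 115 and 96.6 CPM in wild type replicates 1 to 4. The groups were apart, and the fold change on the log2 scale was -0.31 (SE 0.07, adjusted p = 0.0861).

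Uqcrh encodes the acidic hinge protein at the cytochrome c1 docking site. Its level was 48.3, 93.9, 67.8 and 68.4 CPM in Ercc1 delta/+ and 99.7, 103, 111 and 99.5 CPM in wild type. All Ercc1 delta/+ libraries were lower, replicate 2 by a small margin, and the log2 fold change was -0.57 (SE 0.17, adjusted p = 0.119), the lowest of this complex. Uqcrb, a small matrix-side subunit, had 32.8, 46.0, 40.5 and 36.1 CPM in Ercc1 delta/+ and 52.7, 51.6, 52.4 and 48.2 CPM in wild type. Its groups were also apart, with a value of -0.40 (SE 0.10, adjusted p = 0.0928). With the length and GC offset Uqcrfs1 was at -0.16, Uqcrh at -0.26 and Uqcrb at 0.04, and the groups of each overlapped.

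Uqcrq, another small subunit gene, held 42.5, 62.3, 49.9 and 50.9 CPM in Ercc1 delta/+, against 66.1, 73.4, 71.8 and 60.1 CPM in wild type. Replicate 2 of Ercc1 delta/+ exceeded wild type replicate 4, so the groups overlapped (log2 fold change -0.40, SE 0.11, adjusted p = 0.116). The small subunit genes Uqcr10 and Uqcr11 had values of -0.43 (SE 0.16) and -0.29 (SE 0.08), and the groups were apart for Uqcr11. With the offset Uqcrq was at -0.30 and Uqcr10 at -0.10, while Uqcr11 was at 0.02 and its groups overlapped.

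The core proteins, which carry no redox centre, had values nearer 0. Uqcrc2 had a log2 fold change of -0.20 (SE 0.09), and of -0.06 with the offset. Uqcrc1 had 220.1, 275, 229 and 228 CPM in Ercc1 delta/+ and 249, 257, 259 and 215 CPM in wild type, with a value of -0.04 (SE 0.09, adjusted p = 0.850). Its highest library was Ercc1 delta/+ replicate 2 and its lowest wild type replicate 4, so the groups overlapped in full.

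Cyc1 and Cycs both encode heme proteins of the same electron path. Cyc1, the cytochrome c1 of complex III, stood at 135, 157, 147 and 142 CPM in Ercc1 delta/+ and at 162, 165, 179 and 139 CPM in wild type (-0.15, SE 0.09, adjusted p = 0.372). Cycs, the mobile carrier between complexes III and IV and a trigger of apoptosis once released, had 129, 157, 134 and 135 CPM in Ercc1 delta/+ and 175, 167, 177 and 142 CPM in wild type. Its log2 fold change was -0.26 (SE 0.09, adjusted p = 0.187), and the groups overlapped through Ercc1 delta/+ replicate 2 and wild type replicate 4.

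Complex IV had a median of -0.35, with 6 of 10 genes lower at an unadjusted p of 0.05 and the groups apart in 1. That median was the lowest of the complexes as counted, but with the length and GC offset it was -0.03, nearer 0 than those of complex II (-0.11), complex III (-0.09) and ATP synthase (-0.09), and 3 of its genes were lower. Without Ercc1 delta/+ replicate 1 it was -0.24, against -0.31 for complex III. Its catalytic core is encoded in mitochondrial DNA, and the 10 genes here encode the nuclear subunits around that core. Cox7c had 50.5, 73.5, 64.9 and 56.9 CPM in Ercc1 delta/+ replicates 1 to 4 and 87.9, 97.7, 95.9 and 76.5 CPM in wild type replicates 1 to 4. It was the gene of complex IV whose groups were apart, with a log2 fold change of -0.54 (SE 0.12) and the smallest adjusted p of the 39, 0.0814. The offset put Cox7c at -0.17, with its groups overlapping.

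Cox4i1, the largest nuclear subunit and a site of regulation by ATP, stood at 187, 297, 247 and 237 CPM in Ercc1 delta/+ and at 336, 346, 360.2 and 296 CPM in wild type. Replicate 2 of Ercc1 delta/+ lay just above wild type replicate 4, and the other libraries were apart (log2 fold change -0.46, SE 0.13, adjusted p = 0.111). Cox7a2, the ubiquitous form of subunit 7a, had 45.5, 80.5, 61.2 and 60.2 CPM in Ercc1 delta/+ and 87.9, 88.3, 88.2 and 79.5 CPM in wild type (-0.48, SE 0.15, adjusted p = 0.136). Cox6c held 61.9, 105, 76.5 and 71.6 CPM in Ercc1 delta/+ and 101, 109.6, 105 and 91.7 CPM in wild type (-0.37, SE 0.15, adjusted p = 0.217). The offset put Cox4i1 at -0.28, Cox7a2 at -0.22 and Cox6c at -0.02.

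Among the other nuclear subunits of complex IV, Cox7b, an X-linked gene, had a log2 fold change of -0.48 with the highest standard error of the 39 (0.21), and ran from 35.3 CPM in Ercc1 delta/+ replicate 1 to 86.7 CPM in Ercc1 delta/+ replicate 2. Cox6b1, Cox5a, Cox5b and Cox6a1 had values of -0.32, -0.26, -0.23 and -0.22, with standard errors of 0.15, 0.10, 0.16 and 0.14. Their offset values were -0.04, 0.05, 0.00 and 0.03, and that of Cox7b was -0.19. Cox8a, nearest 0 in this complex, held 194, 236, 201 and 211 CPM in Ercc1 delta/+ and 239.8, 276, 234 and 194 CPM in wild type (-0.16, SE 0.11, adjusted p = 0.455; with the offset 0.10).

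ATP synthase, with 15 genes, had a median of -0.31; 11 genes were lower at an unadjusted p of 0.05 and the groups were apart in 4. Its subunits did not share a single value. The F1 head, which makes ATP, is formed by the alpha and beta subunits of Atp5a1 and Atp5b, and these were close to wild type. Atp5a1 had 885, 1007, 902 and 925 CPM in Ercc1 delta/+ and 963, 971, 1008 and 891 CPM in wild type (-0.04, SE 0.07, adjusted p = 0.767). Atp5b stood at 1102, 1303, 1129.6 and 1176 CPM in Ercc1 delta/+ and at 1296, 1309, 1365 and 1057 CPM in wild type (-0.09, SE 0.09, adjusted p = 0.622).

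In the central stalk, which turns inside the head, the fold changes of the 3 subunits spread widely. Atp5e (epsilon) had the lowest fold change of the 39 genes. It held 26.5, 53.3, 42.7 and 41.7 CPM in Ercc1 delta/+, against 66.1, 65.7, 67.6 and 58.9 CPM in wild type. The groups were apart, and the log2 fold change was -0.65 (SE 0.17, adjusted p = 0.103), or 0.635 times the wild type level. Atp5c1 (gamma) had 116, 149, 125 and 123 CPM in Ercc1 delta/+ and 162, 164, 168 and 143 CPM in wild type (-0.31, SE 0.09, adjusted p = 0.117). Atp5d (delta) was at -0.05 (SE 0.09). The offset put Atp5e at -0.33, Atp5c1 at -0.24 and Atp5d at 0.07.

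The peripheral stalk holds the head still, and its 4 genes lay close together. Atp5h (subunit d) stood at 61.2, 91.8, 75.4 and 73.2 CPM in Ercc1 delta/+ and at 99.7, 102, 103 and 91.9 CPM in wild type. The groups were barely apart, with Ercc1 delta/+ replicate 2 just under wild type replicate 4, and the log2 fold change was -0.40 (SE 0.11, adjusted p = 0.112). Atp5o (the oligomycin sensitivity conferral protein), Atp5j (coupling factor 6) and Atp5f1 (subunit b) had values of -0.34 (SE 0.13), -0.28 (SE 0.10) and -0.27 (SE 0.10). Offset values were -0.10 for Atp5h, -0.15 for Atp5o, -0.09 for Atp5j and -0.17 for Atp5f1.

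Among the small membrane subunits, Atp5l (subunit g) had 40.4, 76.4, 57.4 and 57.3 CPM in Ercc1 delta/+ and 81.3, 80.9, 83.2 and 80.1 CPM in wild type. The wild type libraries were nearly equal, and every Ercc1 delta/+ library lay below them (-0.49, SE 0.16, adjusted p = 0.146). Atp5k (subunit e) and Atp5j2 (subunit f) had values of -0.38 (SE 0.14) and -0.37 (SE 0.15). Offset values were -0.16 for Atp5l, whose groups then overlapped, 0.00 for Atp5k and -0.17 for Atp5j2.

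The c ring that rotates in the membrane is built from a single mature protein made by 3 genes. Atp5g3 had 171, 200.1, 199 and 206 CPM in Ercc1 delta/+ and 250.4, 245, 265 and 219.7 CPM in wild type, with groups apart (-0.34, SE 0.08, adjusted p = 0.0910). Atp5g2 stood at 57.6, 70.1, 64.9 and 63.6 CPM in Ercc1 delta/+ and at 72.3, 73.6, 77.1 and 67.3 CPM in wild type (-0.18, SE 0.07, adjusted p = 0.237). Atp5g1 held 70.2, 92.6, 80.4 and 81.6 CPM in Ercc1 delta/+ and 95.5, 96.3, 96.1 and 78.1 CPM in wild type (-0.17, SE 0.10, adjusted p = 0.386). With the offset Atp5g3 was at -0.06 and its groups overlapped, while Atp5g2 was at 0.03 and Atp5g1 at 0.09.

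On the scale of CPM per kilobase of transcript, which allows genes to be compared, Atp5g3 supplied 54.8% ± 1.52 of the summed level of the 3 genes in Ercc1 delta/+ and 57.6% ± 0.681 in wild type (SD, n = 4 each). The share of Atp5g1 was 27.5% ± 1.18 in Ercc1 delta/+ and 25.7% ± 0.924 in wild type (SD, n = 4 each). The summed level was 436, 532, 502 and 512 CPM per kilobase in Ercc1 delta/+ and 609.8, 605, 638 and 531 CPM per kilobase in wild type, where the groups overlapped through Ercc1 delta/+ replicate 2 and wild type replicate 4.

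**Figure D3:**
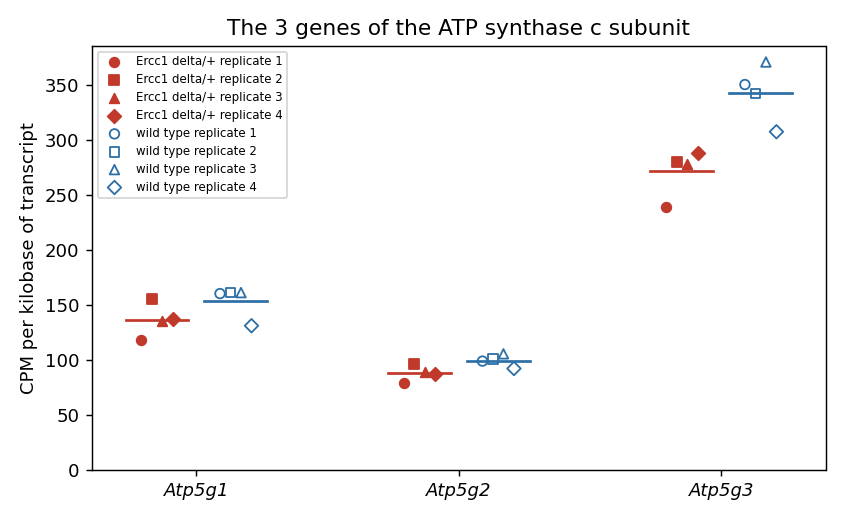
Level of the 3 genes of the c subunit in CPM per kilobase of transcript; filled points are Ercc1 delta/+ libraries, open points wild type libraries, and horizontal lines group means. Atp5g3 is the most abundant of the 3 in every library and, without the length and GC offset, is the gene of the 3 whose groups do not overlap.

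Levels per length differed widely between subunits of the same complex. Atp5b was the most abundant member, at 615 ± 46.5 CPM per kilobase in Ercc1 delta/+ and 656 ± 71.2 CPM per kilobase in wild type (SD, n = 4 each), and ranked 23 among all tested genes. Cox4i1 came next in wild type, with 325 ± 60.5 CPM per kilobase in Ercc1 delta/+ and 449 ± 37.2 CPM per kilobase in wild type (SD, n = 4 each). In Ercc1 delta/+ the levels of Cox8a (383 ± 33.6 CPM per kilobase), Atp5a1 (376 ± 21.8) and Cox6a1 (362 ± 54.4) exceeded that of Cox4i1 (SD, n = 4 each). Sdhc was the least abundant, at 26.9 ± 1.70 CPM per kilobase in Ercc1 delta/+ and 30.3 ± 2.62 CPM per kilobase in wild type (SD, n = 4 each).

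Ratios of subunits of the same complex were taken within each library, where scaling by library size plays no part. The ratio of Atp5e to Atp5a1, per length, was 0.176, 0.311, 0.278 and 0.265 in Ercc1 delta/+ replicates 1 to 4 and 0.403, 0.397, 0.393 and 0.388 in wild type replicates 1 to 4. All 4 Ercc1 delta/+ libraries lay below the narrow wild type range, replicate 2 included. The same held for Uqcrh over Uqcrc1, which ran from 0.663 to 1.03 in Ercc1 delta/+ and from 1.21 to 1.40 in wild type. Cox7c over Cox8a ran from 0.265 to 0.328 in Ercc1 delta/+ and from 0.360 to 0.418 in wild type, and Sdhd over Sdha from 0.276 to 0.342 in Ercc1 delta/+ and from 0.344 to 0.373 in wild type. These pairs were set from the lowest fold change and a value near 0 in each complex, so their direction follows from that choice. A trend over transcript length does not cancel in such ratios, and its part was not tested. Atp5e has 421 bases and Atp5a1 2471, Uqcrh 547 and Uqcrc1 1653, and Sdhd 1231 and Sdha 2900. Cox7c (540 bases) and Cox8a (550 bases) are close in length but differ in GC content, with 46.7% and 58.5%. The part of a trend over GC content in their ratio was not tested.

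Among the members, lower fold changes went with shorter transcripts and with lower counts. Across the 39 genes, which are not independent replicates, Spearman's coefficient of the log2 fold change with transcript length was 0.58, with mean CPM 0.62 and with GC content 0.28. Across all 14710 genes with a length, the coefficient with length was 0.40. Among transcripts under 600 bases the median was -0.39 for 12 members and -0.28 for 183 other genes. The 12 members of 600 to 999 bases had a median of -0.33 (other genes -0.23), the 11 of 1000 to 1999 bases -0.27 (other genes -0.10), and the 4 of 2000 to 3999 bases -0.12 (other genes -0.01). In each class the median of the members was thus the lower one. Short transcripts as a whole were low in Ercc1 delta/+: under 600 bases, 38.8% of the other genes were lower at an unadjusted p of 0.05, where 9 of 12 members were.

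**Figure D4:**
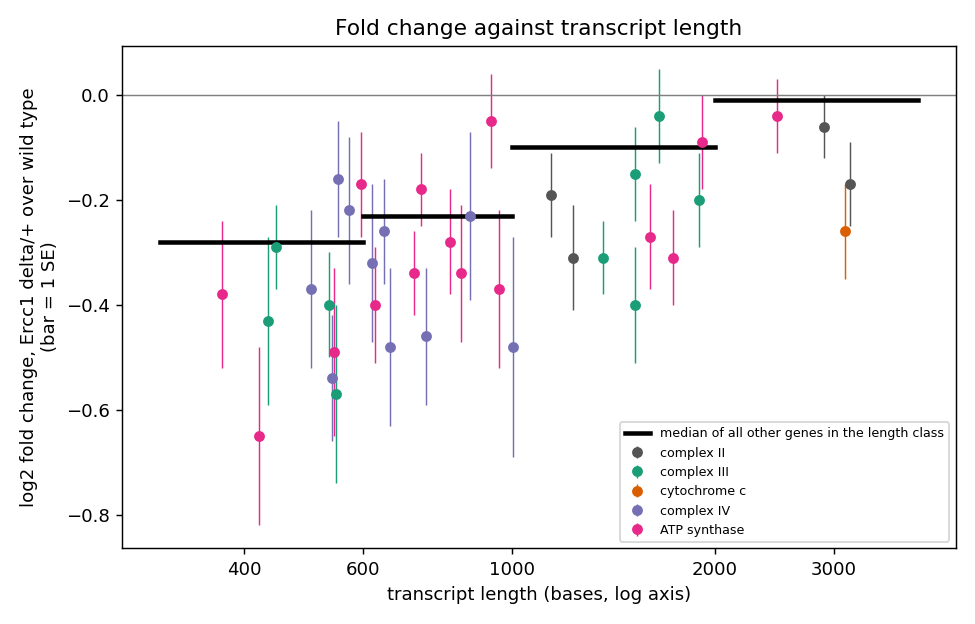
Log2 fold change (Ercc1 delta/+ over wild type) of each member against the length of its transcript on a log axis, coloured by complex, with bars of 1 SE. Black lines mark the median of all other tested genes in 4 length classes, from -0.28 under 600 bases to -0.01 at 2000 to 3999 bases; most members lie below the line of their class.

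Once the length and GC trend was offset in each library, the median of the 39 members was -0.09, and 31 of 39 (79.5%) were negative, where 49.2% of all genes were. The 31 include Cox5b and Atp5k, whose values round to 0.00. The other 8 members turned positive with the offset, at 0.02 to 0.10. At an unadjusted p of 0.05, 10 members (25.6%) were then lower and 0 higher, where 4.91% of all genes were lower. The 10 were Sdhc, Uqcrfs1, Uqcrh, Uqcrq, Cox4i1, Cox7a2, Cox7c, Atp5c1, Atp5e and Atp5f1, with 0 past the adjusted threshold. The values were -0.33 for Atp5e (unadjusted p = 0.00334), -0.30 for Uqcrq (0.00761), -0.28 for Cox4i1 (0.00315), -0.26 for Uqcrh (0.0146) and -0.24 for Atp5c1 (0.00772). Groups were apart for Cox4i1, Atp5e and Atp5h, 7.69% of members, where 3.52% of all genes were.

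**Figure D5:**
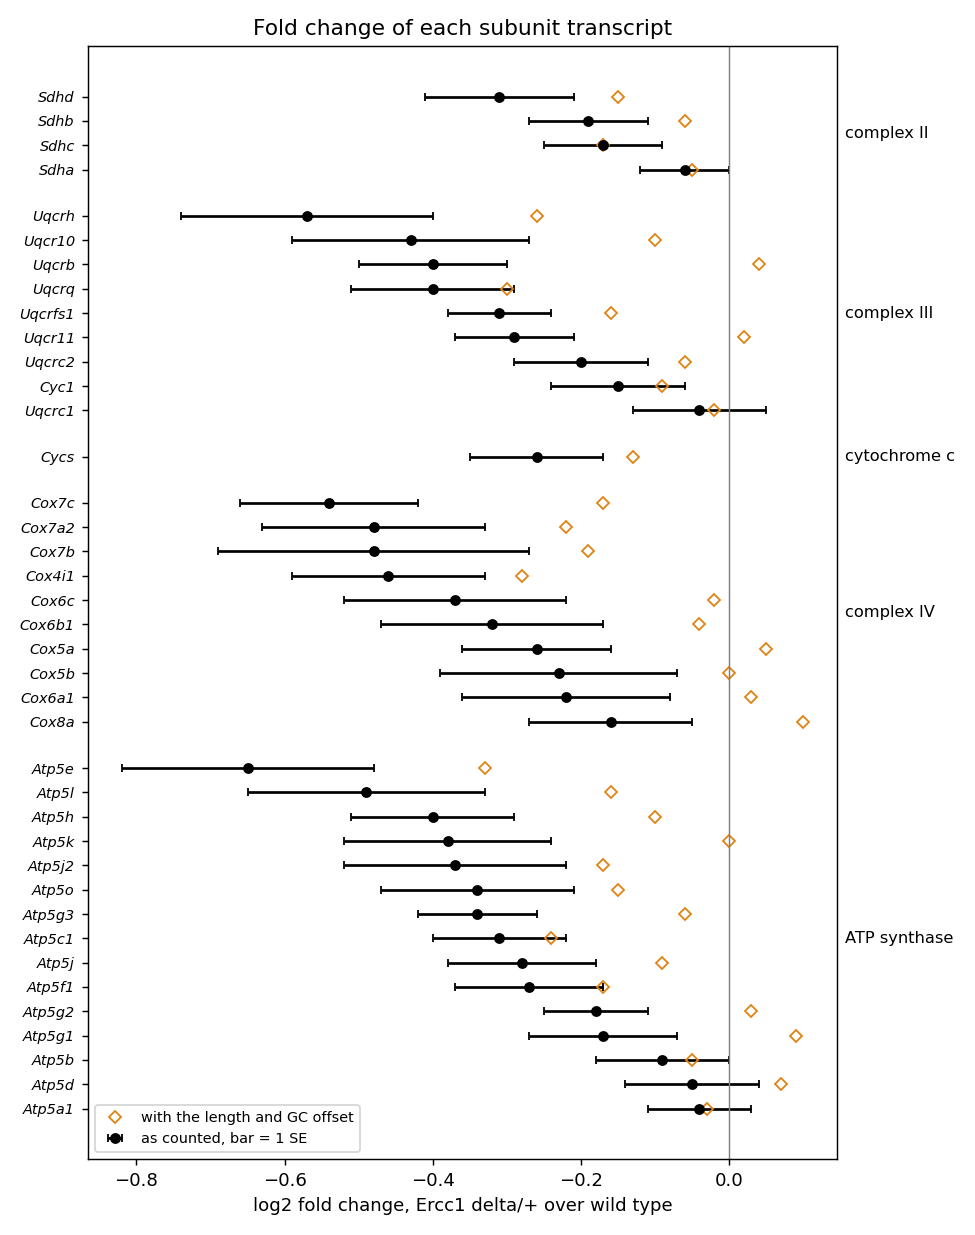
Log2 fold change of each member, Ercc1 delta/+ over wild type, as counted (black, bar of 1 SE) and with the offset for transcript length and GC content (open orange diamonds). As counted all 39 lie below 0, from -0.65 to -0.04. With the offset 31 do, among them Cox5b and Atp5k at values that round to 0.00, and the median is -0.09.

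Related genes were examined from lists written with the earlier results known. Of the tissue-restricted isoforms and further subunits, 10 of 14 were tested, 9 were negative, and 6 were lower and 0 higher at an unadjusted p of 0.05 (median -0.33; with the offset -0.05, with 0 lower). Usmg5, a membrane subunit of ATP synthase that holds its dimers, had 15.7, 33.3, 31.1 and 26.8 CPM in Ercc1 delta/+ and 41.7, 45.8, 43.3 and 43.5 CPM in wild type (-0.71, SE 0.19, adjusted p = 0.107). The groups were apart. Atpif1, the inhibitor of ATP synthase, had a value of -0.37 (SE 0.12), and Cox7a2l, which links complexes III and IV, -0.26 (SE 0.09). Isoforms used in lung or muscle were scarce: Cox4i2 stood at 1.95 CPM per kilobase in Ercc1 delta/+ and 1.84 in wild type, and Cox7a1 at 3.71 in Ercc1 delta/+ and 4.38 in wild type.

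Of 36 assembly factors 30 were negative (median -0.15), with 13 lower and 0 higher at an unadjusted p of 0.05; with the offset the median was -0.05, with 5 lower. The smallest p-values belonged to Sdhaf4 of complex II (-0.50, SE 0.13, adjusted p = 0.0994), Cox17, a copper chaperone of complex IV (-0.40, SE 0.11, adjusted p = 0.103), and Uqcc2 of complex III (-0.62, SE 0.17, adjusted p = 0.106), each with groups apart. With the offset these were at -0.16 (Sdhaf4), -0.01 (Cox17) and -0.37 (Uqcc2). The 16 citric acid cycle and pyruvate dehydrogenase genes, with a median transcript length of 2590 bases, had a median of -0.10, with 3 lower and 0 higher at that threshold. These were Dld (-0.16), Suclg1 (-0.20) and Fh1 (-0.17), which encode enzymes of the matrix. With the offset the median of this list was -0.01, with 0 lower, and Dld was at -0.01. Of 8 genes that move nucleotides and phosphate across the mitochondrial membranes or buffer ATP, 2 were lower (median -0.12): the channel genes Vdac3 (-0.22, SE 0.06) and Vdac2 (-0.18, SE 0.08). The gene next in p, the phosphate carrier gene Slc25a3, had -0.13 (SE 0.07). With the offset the median of these 8 genes was -0.01, with 0 lower, and Vdac3 was at -0.01.

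All 36 complex I genes, with transcripts of 760.5 bases at the median (809 for the members), were negative, as were all 39 members. Their median was -0.30, with 24 lower and 0 higher at an unadjusted p of 0.05 and groups apart in 7. Ndufb2 (-0.59), Ndufa7 (-0.70) and Ndufa2 (-0.38) had the smallest p-values. With the offset the complex I median was -0.07, beside -0.09 for the members, with 30 complex I genes negative and 7 lower. Over these lists together 0 genes passed the edgeR quasi-likelihood test after adjustment over all genes.

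The values of some members carry a counting uncertainty. GENCODE M21 names pseudogenes after 5 members, Atp5c1, Atp5k, Atp5l, Cycs and Uqcrh. How reads shared with such copies were counted is not given in the sources used here. Copies under other names were not searched for, so other members may share this uncertainty.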

How the data were processed

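Messenger RNA of 4 Ercc1 delta/+ and 4 wild type samples was sequenced. Libraries were made from poly(A) RNA with poly-dT and random hexamer priming and shared 1 lane, per the labels' protocols. Per the submitters' processing notes, TopHat 1.3.1, edgeR and mm9 were used; the sources used here do not name the counting tool or its handling of strand and multiply mapped reads. The authors deposited raw counts for 19931 coding RefSeq transcripts, with log2 fold changes of their own comparison and a p-value and adjusted p-value per row. The lowest row total is 31 counts.

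Rows were named through RefSeq (GRCm38.p6) and GENCODE M21 (19600 matched); the row of highest total stood for a gene, and 45 genes with identical counts were merged. Transcript length and GC content are those of the longest GENCODE transcript linked to the RefSeq row. Where none was linked, the protein-coding transcript of middle length under the same symbol was used. The main test was the edgeR 4.0.16 quasi-likelihood test (R 4.3.3, TMM, filterByExpr, two-sided, Benjamini-Hochberg threshold 0.05); the SE is the fold change over the root of F. CPM is TMM-scaled, with a prior count of 2 on the log2 scale. Alternatives were DESeq2 1.42.0, limma-voom (limma 3.58.1), the exact test, other scalings and filters, a replicate block, a depth term, every transcript as a row, each library left out, and an offset (lowess, span 0.3, per library on length and then GC). At these depths 3 counts equal 0.0962 to 0.164 CPM, counting error only. No 2 libraries of a group were alike within sampling noise (lowest chi-square over degrees of freedom 11.9). The members, gene lists and naming rule (smallest p per complex, the value nearest 0, the most abundant) were chosen with earlier results of these data known. Tests were tried on simulated data first.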

Additional observations from a re-analysis of the deposited data

Results flagged for a closer look

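Of 78 groups of 4 libraries (39 members in each genotype), 10 held a library far from the other 3, where chance gives about 1 in 20; the members vary together, so these are not independent. The far library was Ercc1 delta/+ replicate 2 on the high side for Sdhd (78.9 CPM, next 61.4 CPM), Uqcrc1 (275 CPM, next 229 CPM), Uqcrc2 (217 CPM, next 178 CPM) and Atp5f1 (200.3 CPM, next 157 CPM). It was wild type replicate 4 on the low side for Uqcrfs1 (96.6 CPM, next 112 CPM), Cox5a (105 CPM, next 132 CPM), Cox5b (95.03 CPM, next 115 CPM), Cox7a2 (79.5 CPM, next 87.9 CPM), Atp5f1 (184 CPM, next 204 CPM) and Atp5g1 (78.1 CPM, next 95.5 CPM).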

How the results depend on the processing

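All 39 members stayed negative in every setting but the length and GC offset, alone or with the replicate block, where 8 reversed: Uqcrb 0.04, Uqcr11 0.02, Cox5a 0.05, Cox6a1 0.03 (0.04 with the block), Cox8a 0.10, Atp5d 0.07, Atp5g1 0.09 and Atp5g2 0.03. With the offset, alone or with the block, medians were -0.09 for all members, complex III and ATP synthase and -0.03 for complex IV; 10 members had an unadjusted p under 0.05 (11 with the block) and groups were apart in 3. The groups were apart in 14 members with upper-quartile scaling. Members called numbered 7 with the exact test and 12 with DESeq2, which also called Ercc1 (-0.33). The genes called over all genes tested, 7 by the test used throughout, numbered 33 with RLE, 86 with upper-quartile scaling, 67 with the stricter filter, 538 with the exact test, 1028 with DESeq2, 52 with limma-voom, 4 with every transcript as a row, 1 with the offset, 1 with the depth term and 0 with the block, with or without the offset. Leaving out each library gave 0 to 321 genes called, 0 to 16 members called, 15 to 32 members with an unadjusted p under 0.05 and 9 to 30 with groups apart. The cause of these shifts was not tested. Same-numbered libraries deviated together at r = -0.28, 0.17, -0.12 and 0.26, and Ercc1 delta/+ replicate 1 was closest to wild type replicate 2 (0.50), so the numbers were not taken as pairs; the block changed no member's call.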
